A study of Mus musculus with 12 samples.

Results

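Experiment 1 compared CD11b dendritic cells (DCs) after a TGF-β1 vector with CD11b DCs after an empty vector, and its 6 libraries are described here across all genes, the transcripts of lung structural cells included. They are 6 of the 12 libraries of the series and were taken by the experiment and vector named in the sample titles. AdCL DC 7, DC 8 and DC 9 came from mice given a replication-deficient adenovirus with no inserted gene, and AdTGFb1 DC 14, DC 52 and DC 54 from mice given the same kind of virus with a pig gene for active TGF-β1. Both groups were wild-type C57BL/6J mice of 8 to 12 weeks, both had the virus aspirated through the trachea, and the controls therefore carry the vector backbone too. The series title places the study in established lung fibrosis. The sources used here do not give the organ sorted, the gate, the time after the vector or the sex of the mice. Nor do they say whether each library is 1 animal, so that a p-value measures only the spread between libraries, which may be technical. Experiment 3, with 3 libraries of each vector (AdCL DC 943, DC 944 and DC 949, AdTGFb1 DC 954, DC 955 and DC 956), is used only to show where experiment 1 differs.

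CD11b DCs are antigen-presenting cells that take up material in the tissue, mature, and migrate through the receptor CCR7 to lymph nodes, where they prime T cells with MHC class II and co-stimulatory molecules. TGF-β1 is a cytokine that drives matrix deposition, and its overexpression from an adenovirus is a standard way of making the rodent lung fibrotic. Macrophages of fibrotic lung are known for genes of matrix turnover, lipid handling and lysosomal digestion. The pig transgene is not measured separately in these counts, so the delivered TGF-β1 itself could not be checked.

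Levels are in CPM, counts scaled to a common library size after TMM, always in the order DC 7, DC 8, DC 9 for AdCL and DC 14, DC 52, DC 54 for AdTGFb1. Effects are log2 fold changes of AdTGFb1 against AdCL with their SE, and all adjusted p-values are from edgeR's quasi-likelihood F test with Benjamini-Hochberg adjustment over 13221 genes. A gene rose or fell where its adjusted p was under 0.05. The 6 libraries held 10953043 to 13440851 counts. Log2 CPM correlated at 0.896 to 0.899 within AdCL, 0.928 to 0.942 within AdTGFb1 and 0.829 to 0.858 between the vectors (Pearson's r across genes, which are not independent). CD11b DC identity genes were detected in every library, 21 of 21, with Itgam, which encodes CD11b, at 352, 426 and 333 CPM in AdCL and 276, 364 and 452 CPM in AdTGFb1. Several measures other than the vector differed between the groups, some of them with overlap. By Xist and Y-linked counts the AdCL libraries and AdTGFb1 DC 14 were from males and AdTGFb1 DC 52 and DC 54 from females. The 45S ribosomal RNA precursor (Rn45s) took 7.44 to 8.33% of AdCL counts and 5.6 to 7.46% of AdTGFb1 counts, and Malat1, a nuclear non-coding RNA, 2.35 to 2.51% and 1.31 to 1.8%. TMM factors were 0.881 to 0.919 in AdCL and 1.05 to 1.08 in AdTGFb1. Counts of Bmp6, Ccna2, Col4a2, Ctsa, Cyp51, Nfkb2, Nfkbib and Stab1, which share exon sequence with a gene on the other strand, of Glb1, which shares it with Tmppe on the same strand, and of Chil3, Ifi204, Rps15 and Rpl7, which have near copies in the genome, are uncertain. The mean log2 CPM of shared endothelial markers was 3.13 to 4.71 in AdCL and 0.549 to 0.924 in AdTGFb1.

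With the TGF-β1 vector the libraries held more RNA of many fibrosis-associated macrophage, lysosome and cell cycle genes. They held less RNA of most NF-kB and co-stimulation genes, and much less of most endothelial, alveolar type I and fibroblast genes that were tested. Of 13221 genes, 3264 (24.7%) passed the test, 1397 (10.6%) higher and 1867 (14.1%) lower with AdTGFb1. At least 2-fold changes made up 760 (5.75%) and 1059 (8.01%) of the genes. All 3 AdTGFb1 libraries lay above all 3 AdCL libraries for 2487 genes (18.8%) and below them for 2861 (21.6%). The median over all genes was -0.03, and scaling to total counts alone shifted it by 0.24, turning the calls to 2384 higher and 1264 lower. A fit with a term for sex called 540 and 756 genes. AdTGFb1 DC 14 was also set alone against the male AdCL libraries. A term for the endothelial marker level called 5 and 12, but that level separates the groups, so the fit can hardly tell it from the vector.

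Among genes that reached at least 10 CPM in the higher group and did not overlap between the groups, Arg1 and Slc7a2 of arginine metabolism and Chil3 had the largest increases. Arg1, arginase 1, was at 1.34, 0.299 and 15.6 CPM in AdCL and 280.4, 726 and 405 CPM in AdTGFb1. Its lowest AdTGFb1 library stood far above its highest AdCL library, DC 9, and the log2 fold change was 6.33 ± 0.92 (adjusted p = 2.56e-05). Slc7a2, a carrier of arginine, went from 3.00, 5.07 and 23.7 CPM to 187, 426 and 383 CPM (4.96 ± 0.62). Chil3, the secreted chitinase-like protein Ym1, was at 13.5, 56.5 and 104 CPM and 977, 2039.6 and 1662 CPM, with no overlap and a log2 fold change of 4.75 ± 0.55 (adjusted p = 1.56e-06). For all of these DC 9 was the highest AdCL library and DC 14 the lowest AdTGFb1 library. F7, coagulation factor VII, rose by 4.52 ± 0.56 and Ccl24, a chemokine for eosinophils, by 4.66 ± 0.82. Tarm1, an activating receptor of myeloid cells, rose by 3.78 ± 0.65 and Ccdc80, an extracellular matrix protein, by 3.85 ± 0.63. Tlr12, a receptor for profilin of protozoa, was at 0 counts in DC 7 and rose by 3.998 ± 0.77, with 19.7, 2.72 and 8.87 CPM in AdTGFb1.

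Genes that fell furthest were mostly at or near 0 with AdTGFb1. Inmt, a methyltransferase of lung fibroblasts, had 18.8, 60.8 and 18.04 CPM in AdCL and no count in any AdTGFb1 library. Against a floor of 3 counts per library it was at least 151-fold lower. C7, a terminal complement component, and Pcolce2, an enhancer of procollagen processing, also had no count with AdTGFb1 and were at least 60.3-fold and 48.2-fold lower. Fmo1, a flavin monooxygenase, had 0 counts in DC 14 and DC 54 and 0.430 CPM in DC 52, against 17.5, 52.7 and 35.2 CPM in AdCL. Cyp4b1, a cytochrome P450 abundant in lung, was at 11.3, 39.0 and 16.8 CPM in AdCL and at most 0.688 CPM with AdTGFb1, in DC 54. In DC 8 the levels of Inmt, C7, Pcolce2, Fmo1 and Cyp4b1 were the highest of the AdCL libraries. In all, 189 tested genes had no count in any AdTGFb1 library of experiment 1. Bmp6, a bone morphogenetic protein, fell from 9.10, 13.7 and 10.9 CPM to 0.151, 0 and 0 CPM, and Gimap6, a GTPase of lymphocytes and endothelium, from 20.1, 36.5 and 13.5 CPM to 0.151, 0.644 and 0.138 CPM.

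**Figure D1:**
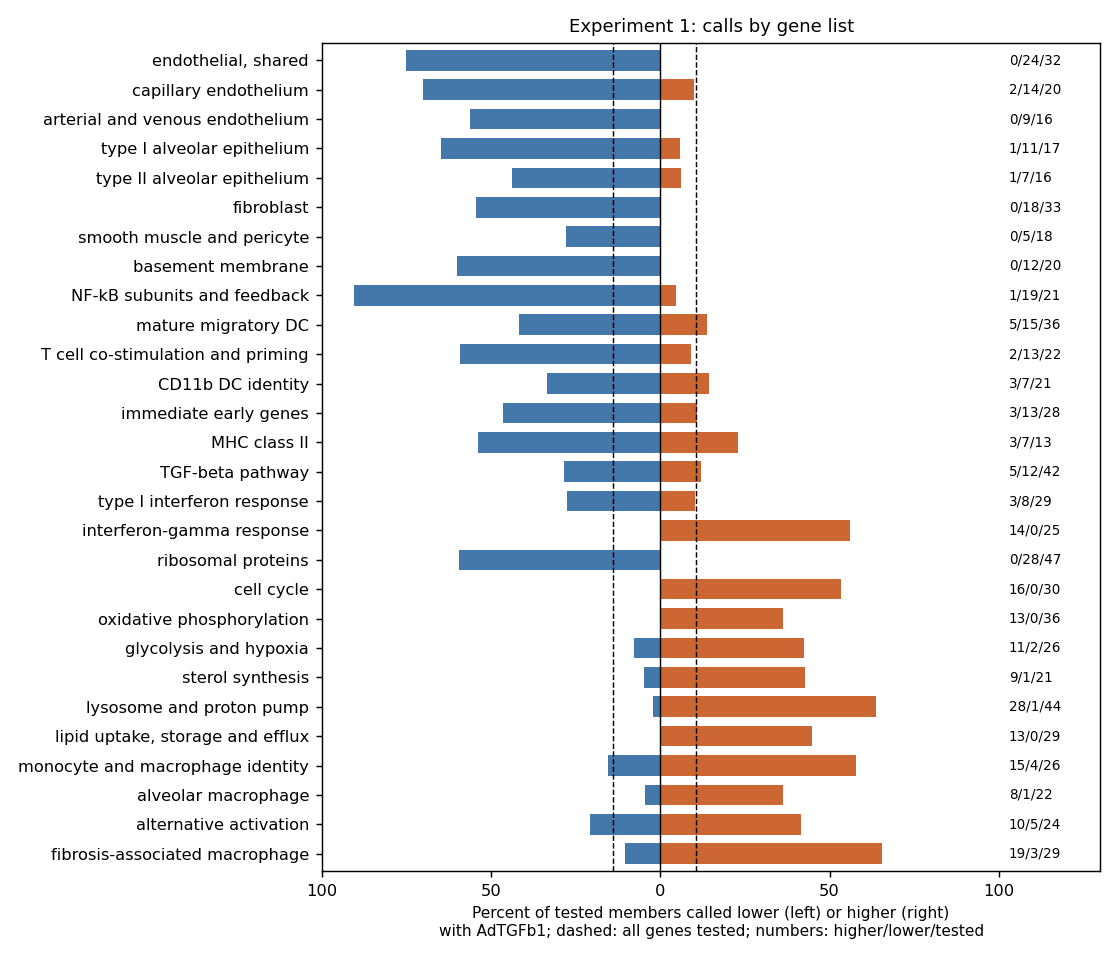
Percent of the tested members of 28 gene lists called lower (left, blue) or higher (right, orange) with AdTGFb1 in experiment 1, with the counts higher, lower and tested at the right; the dashed lines mark the 10.6% and 14.1% of all genes. The endothelial, fibroblast and NF-kB lists reach far to the left, and the lysosome and fibrosis-associated macrophage lists far to the right.

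Most tested genes of macrophages in fibrotic tissue rose. Of 29 tested members of the fibrosis-associated macrophage list, 19 rose and 3 fell, with a median log2 fold change of 1.84 beside -0.03 over all genes. Fn1, fibronectin, was among the most abundant of them, at 476, 530.1 and 727 CPM in AdCL and 4009, 10850.5 and 8678 CPM in AdTGFb1. The groups did not overlap, and the log2 fold change was 3.76 ± 0.35 (adjusted p = 1.26e-07). Spp1, osteopontin, was at 210.3, 226 and 213 CPM and 544, 1189 and 1423 CPM, 2.28 ± 0.27 on the log2 scale, with 3 AdCL values close together and DC 14 the lowest AdTGFb1 value. Gpnmb, a glycoprotein of lipid-laden macrophages, went from 15.6, 10.1 and 25.6 CPM to 219, 150.0 and 471 CPM (4.03 ± 0.64). Trem2, a lipid-sensing receptor, rose by 2.11 ± 0.30, and Mmp14, a membrane-bound collagenase, by 2.14 ± 0.19 (adjusted p = 1.07e-07). Igf1, an insulin-like growth factor, was even between libraries, at 29.5, 46.1 and 48.7 CPM in AdCL and 174, 186 and 179 CPM in AdTGFb1, with a change of 2.11 ± 0.19. Lpl, lipoprotein lipase, went from 147, 159 and 149.9 CPM to 386, 557 and 686 CPM. Mmp12, macrophage elastase, overlapped between the groups, at 723, 891 and 831 CPM and 806, 1512 and 1372 CPM. Its change of 0.59 ± 0.19 passed the test (adjusted p = 0.0271) but was lost without any 1 of DC 7, DC 52 or DC 54 (0.42 to 0.56, adjusted p 0.0761 to 0.149). It was -0.01 with DC 14 as the sole AdTGFb1 library and -0.02 with a term for sex.

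Markers of alveolar and other macrophages that passed the test were mostly higher. The alveolar macrophage list had 8 of 22 tested members higher and 1 lower (median 1.25), with 4 higher and 0 lower for AdTGFb1 DC 14 alone. Its summed level was 377 to 518 CPM in AdCL and 1949 to 3699 CPM in AdTGFb1. Most of the AdTGFb1 sum came from Chil3, whose counts are uncertain, with Lpl, Slc7a2 and Atp6v0d2. Chil3 alone held 977 to 2040 CPM of it, and 13 of the 22 members did not pass the test. At most 1 of the 22 members was at 0 counts in any library of experiment 1. Atp6v0d2, a subunit of the proton pump, went from 11.7, 14.0 and 22.3 CPM to 118, 164 and 193 CPM (3.30 ± 0.33, adjusted p = 2.05e-07), and the groups did not overlap. Among monocyte and macrophage identity genes, 15 of 26 rose and 4 fell (median 0.80), with a summed level of 6489 to 7708 CPM in AdCL and 14598 to 17514 CPM in AdTGFb1. Whether more macrophage-lineage cells were in the sorted population, or the same cells held more of this RNA, cannot be told apart in bulk RNA. Nor can fewer cells of a type be told from less RNA per cell for any list below. Apoe, the lipid carrier apolipoprotein E, was at 1016, 1012 and 1654 CPM and 6192, 3908 and 5565 CPM (2.09 ± 0.20, adjusted p = 1.21e-07). Fcgr1, the high-affinity receptor for IgG, rose by 1.93 ± 0.23, Fcgr3, a low-affinity one, by 1.61 ± 0.16, and Ccr2, the receptor that brings monocytes into tissue, by 1.43 ± 0.16. Itgax, which encodes CD11c, rose by 0.44 ± 0.13, a call lost without DC 52 (0.36, adjusted p 0.0886), and Itgam did not pass the test (-0.02 ± 0.18, adjusted p = 0.941), its sign turning with total-count scaling (0.22).

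Scavenging, complement and mediators of matrix turnover were split. The phagocytic and scavenger receptor list had 11 of 25 genes higher and 4 lower. Msr1, scavenger receptor A, rose by 2.46 ± 0.30, from 14.0, 16.7 and 23.5 CPM to 55.3, 105 and 139 CPM. Itgb5, an integrin chain for apoptotic cells, rose by 1.63 ± 0.19 and Stab1, a scavenger receptor, by 0.93 ± 0.18. Timd4, a receptor for phosphatidylserine on dying cells, was at 249, 178 and 168 CPM in AdCL and 8.48, 12.1 and 3.37 CPM in AdTGFb1. With no overlap between the groups, it fell by 4.63 ± 0.42 (adjusted p = 1.05e-07). Among complement genes 6 of 17 rose and 4 fell, 1 without DC 9 and 2 without any 1 of DC 14, DC 52 or DC 54. Cfb, factor B of the alternative pathway, was at 11.3, 7.66 and 13.3 CPM and 219, 154 and 287 CPM (4.35 ± 0.62). C1qa, C1qb and C1qc, the chains of C1q, rose by 1.23 ± 0.16, 1.27 ± 0.16 and 1.899 ± 0.19. Of 36 matrix and profibrotic genes 14 rose and 3 fell, 9 and 3 with DC 14 alone, and their median of -0.01 turned to 0.23 with total-count scaling. Tgfbi, a matrix protein induced by TGF-β, went from 829.6, 703 and 816 CPM to 1813, 2291 and 2210.1 CPM (1.43 ± 0.16). Ctsk, cathepsin K, a collagen-cutting protease, went from 4.03, 4.68 and 4.09 CPM to 46.4, 96.7 and 103.3 CPM, with no overlap and a change of 4.26 ± 0.53. For alternative activation genes 10 of 24 rose and 5 fell, 6 and 4 with DC 14 alone. Arg1 and Chil3 were among those that rose, and Ccl22, a T-cell chemokine, among those that fell (-1.58 ± 0.22).

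**Figure D2:**
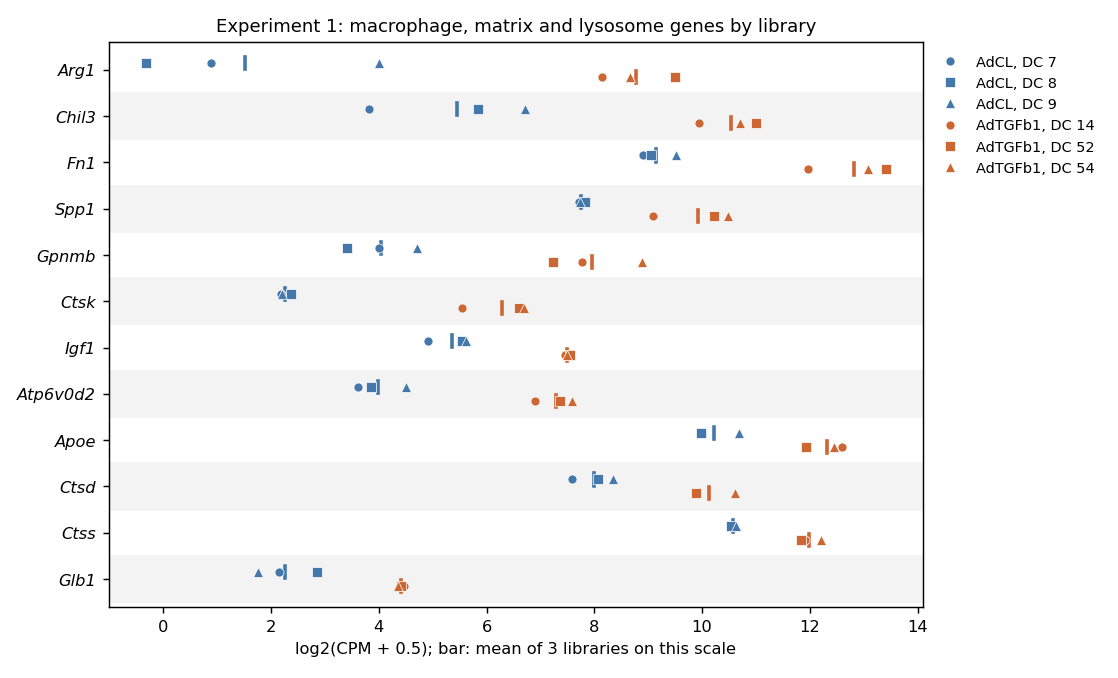
Levels of 12 macrophage, matrix and lysosome genes in the 6 libraries of experiment 1, as log2(CPM + 0.5); blue points are AdCL and orange points AdTGFb1, with 1 marker shape per library and a bar at each group's mean. For each gene every AdTGFb1 library lies to the right of every AdCL library, and for Arg1 and Chil3 the AdCL points are spread widely.

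Most lysosome genes rose, as did part of the lipid handling genes. Of 44 tested lysosome and proton pump genes 28 rose and 1 fell, with a median of 0.76; with DC 14 alone 24 rose and 0 fell, and with total-count scaling 36 and 0. Ctsd, the aspartic protease cathepsin D, was at 191, 267 and 324 CPM in AdCL and 959.5, 945 and 1560.1 CPM in AdTGFb1 (2.15 ± 0.28). Ctss, cathepsin S, which trims the class II invariant chain, went from 1514, 1475 and 1573 CPM to 3836, 3671 and 4733 CPM. Grn, progranulin, went from 197, 241 and 239.6 CPM to 665, 613 and 736 CPM. For these genes the groups did not overlap, and DC 14 was within the range of the other AdTGFb1 libraries or close to it. Gusb, β-glucuronidase, rose by 1.57 ± 0.15 (adjusted p = 1.38e-07). Lipid uptake, storage and efflux genes had 13 of 29 higher and 0 lower (median 0.58). Fabp5, a fatty acid binding protein, went from 68.7, 75.3 and 85.4 CPM to 239.7, 252 and 329.7 CPM, a change of 1.84 ± 0.25.

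Lysosomal promoters are known to carry an E-box preceded by GT, and the letters GTCACGTG were therefore searched on both strands in windows from 250 bases before to 50 bases after the gene start (RefSeq sequences, GRCm38.p6). They were in 738 of 32851 promoters (2.25%) and in 10 of 39 promoters of 34 matched lysosome and proton pump genes (25.6%). Of the 24 promoters of genes that rose, 6 held them (25.0%), as did the 1 promoter of the gene that fell. The stretches of 50 bases below, each upstream of a gene start and in the direction of the gene, show the motif in capitals in 3 genes that rose; Ctsa, Ctsd and Glb1 were chosen after their values were seen, because they hold it.
Ctsa, chr2:164833723-164833772, plus strand: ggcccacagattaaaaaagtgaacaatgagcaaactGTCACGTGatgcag
Ctsd, chr7:142387897-142387946, minus strand: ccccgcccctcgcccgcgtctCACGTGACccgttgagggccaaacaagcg
Glb1, chr9:114401007-114401056, plus strand: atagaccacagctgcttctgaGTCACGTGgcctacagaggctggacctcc
Ctsa, a protective protein of the lysosome, went from 213, 246 and 289 CPM to 418, 394 and 447 CPM, and Glb1, lysosomal β-galactosidase, from 3.93, 6.77 and 2.88 CPM to 21.5, 20.7 and 19.9 CPM (2.19 ± 0.40). In Ctsd the motif is on the other strand and starts 98 bases before the gene start. A match describes these letters only, and binding was not measured.

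Cell cycle genes and part of the energy genes were also higher. Of 30 tested cell cycle genes 16 rose and 0 fell (median 1.10), 8 and 0 with DC 14 alone. Top2a, topoisomerase of dividing cells, went from 130.3, 109 and 107 CPM to 249.7, 257 and 222 CPM (1.07 ± 0.15, adjusted p = 1.84e-05). Ccna2, cyclin A2, was low in AdCL at 7.34, 0.995 and 4.74 CPM and reached 31.4, 24.4 and 35.5 CPM, 2.80 ± 0.52 on the log2 scale. Tpx2, a spindle factor, and Mcm3, a subunit of the replicative helicase, rose by 1.44 ± 0.25 and 1.00 ± 0.17. No AdTGFb1 library overlapped AdCL for any of these 4 genes. Oxidative phosphorylation had 13 of 36 genes higher and 0 lower (median 0.48), glycolysis and hypoxia 11 of 26 higher and 2 lower (median 0.59), and sterol synthesis 9 of 21 higher and 1 lower (median 0.64). With DC 14 as the sole AdTGFb1 library these became 2 and 0, 0 and 2, and 1 and 0, and with total-count scaling 22 oxidative phosphorylation genes were higher. Without DC 52 the sterol count was 4 and the glycolysis count 7; without DC 54 the sterol count was 5, and without DC 7 also 5. Ndufs7, a subunit of respiratory complex I, went from 4.65, 6.37 and 5.67 CPM to 22.9, 32.5 and 26.1 CPM (2.29 ± 0.34), and Sdha, of complex II, from 97.8, 127 and 127 CPM to 182, 199 and 193 CPM. Aldoa, aldolase A, rose by 0.80 ± 0.15 and Ldha, lactate dehydrogenase A, by 0.96 ± 0.18, while Ndrg1, a gene induced by hypoxia, fell by 0.82 ± 0.14. Scd2, a fatty acid desaturase listed with sterol synthesis, rose by 1.94 ± 0.31 and Cyp51, a sterol demethylase, by 0.93 ± 0.22.

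Many ribosomal protein genes fell slightly. Of 47 tested, 28 fell and 0 rose, with a median of -0.42. Rps15 went from 533, 506 and 465 CPM to 329, 340.0 and 285 CPM and Rpl7 from 721, 663 and 585 CPM to 407, 438 and 417 CPM, with no overlap. With total-count scaling 5 fell, with a median of -0.18, and with DC 14 alone 1 fell. Leaving out DC 7, DC 54 or DC 8 left 12, 13 and 16 lower.

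NF-kB genes were lower nearly throughout. Of 21 tested members, subunits, inhibitors and feedback regulators of the pathway, 19 fell and 1 rose, with a median log2 fold change of -1.22. Between 18 and 19 fell without any 1 library, 17 with DC 14 alone and 18 with total-count scaling. Traf1, an adaptor of TNF receptors and a classical NF-kB target, was at 651, 664 and 661 CPM in AdCL and 161, 121 and 133 CPM in AdTGFb1. The spread within each group was small, and it fell by 2.25 ± 0.17 (adjusted p = 1.09e-08). Rel, a subunit, went from 1276, 1043 and 1289.8 CPM to 524, 464 and 431 CPM. Nfkbia, the inhibitor IκBα, went from 2081, 1703 and 1795 CPM to 816, 729 and 744 CPM, and Tnfaip3, the feedback enzyme A20, from 4083, 3078 and 3388 CPM to 1484, 1344 and 1267 CPM. All AdTGFb1 values of these genes were below all AdCL values. Nfkbib, another inhibitor, fell by 1.84 ± 0.17, Nfkb2, the subunit p100, by 1.34 ± 0.15, and Cflar, an inhibitor of caspase 8, by 1.81 ± 0.16.

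Promoters of the same windows were searched on both strands for 1 form of the κB site, the letters GGG, then any 2 bases, then TTTCC. It was in 535 of 32851 promoters (1.63%), in 7 of 22 promoters of 18 matched NF-kB list genes (31.8%) and in 6 of the 20 promoters of those that fell (30.0%). By gene these are 5 of 18 and 4 of 16, since Nfkb2 has several promoters with it. Of the latter, 3 are shown with the motif in capitals, as they are read along the gene; Nfkbia and Tnfaip3 were chosen after their values were seen, for holding it.
Rel, chr11:23771031-23771080, minus strand: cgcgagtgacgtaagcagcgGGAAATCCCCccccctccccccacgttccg
Nfkbia, chr12:55492648-55492697, minus strand: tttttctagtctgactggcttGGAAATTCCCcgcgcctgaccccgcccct
Tnfaip3, chr10:19015411-19015460, minus strand: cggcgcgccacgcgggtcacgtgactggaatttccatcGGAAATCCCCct
In each the match is on the other strand, and it starts 91, 29 and 12 bases before the gene start. The Tnfaip3 window also holds the lysosomal letters, in lower case. Of 39 promoters of 27 matched mature migratory DC genes, 4 held the κB letters (10.3%). These were of 2 genes, Eno2 and Nfkb2, which both fell, and Nfkb2 is in the NF-kB list too. Among the 13 promoters of migratory genes that fell they made up 30.8%. Here too a match describes the letters only, and binding was not measured.

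Co-stimulation genes fell in their majority, and maturation genes in part. Of 36 mature migratory DC genes 15 fell and 5 rose (median -0.67), and of 22 T cell co-stimulation and priming genes 13 fell and 2 rose (median -1.41). Ccr7, the receptor that guides DCs to lymph nodes, was at 1036, 971 and 1072 CPM in AdCL and 336, 271 and 277 CPM in AdTGFb1 and fell by 1.80 ± 0.18 (adjusted p = 2.58e-07). Cd86, a ligand of CD28, was at 525, 542 and 574 CPM and 251, 221 and 189.9 CPM and fell by 1.31 ± 0.16. Cd80, its relative, fell by 1.71 ± 0.23 and Marcksl1, an actin regulator of mature DCs, by 2.32 ± 0.20. The groups did not overlap for any of them. Il10, an anti-inflammatory cytokine counted with the priming genes, fell from 73.3, 48.9 and 31.2 CPM to 3.03, 6.16 and 5.23 CPM. Eno2, an enolase of migratory DCs, fell by 2.94 ± 0.32. With DC 14 alone 0 mature migratory genes rose and 11 fell; 2 rose without DC 52 and 3 without DC 7 or DC 54.

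Genes that identify the DC lineage were split. Among 21 CD11b DC identity genes 7 fell, 3 rose and 11 did not pass, and the median of -0.06 turned to 0.18 with total-count scaling. Itgax, described above, was 1 of the 3 that rose, while Zbtb46, Flt3, Relb and Tbc1d4 were among the 7 that fell. Zbtb46, a transcription factor of classical DCs, was at 170.3, 128 and 153 CPM and 53.7, 36.9 and 50.5 CPM and fell by 1.68 ± 0.23 (adjusted p = 1.32e-05). Flt3, whose ligand sustains DC numbers, fell by 1.503 ± 0.20, Relb, an NF-kB subunit needed by CD11b DCs, by 1.36 ± 0.20, and Tbc1d4, a regulator of vesicle traffic, by 1.59 ± 0.20. CD103 DC genes moved both ways, 4 of 16 higher and 3 lower, 2 and 1 with DC 14 alone. Cd207, langerin, was at 275, 356 and 233 CPM in AdCL and 10.6, 12.9 and 13.1 CPM in AdTGFb1. It fell by 4.56 ± 0.42 (adjusted p = 1.1e-07), and its lowest AdCL value was far above its highest AdTGFb1 value. Naaa, a lysosomal amidase, and Irf8, a transcription factor of DCs and monocytes, rose by 1.52 ± 0.17 and 1.14 ± 0.16, and Cadm1, an adhesion molecule, fell by 1.44 ± 0.40. Kit, a growth factor receptor listed for mast cells, fell by 1.92 ± 0.20, from 201, 156 and 260.3 CPM to 69.5, 49.0 and 44.0 CPM.

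**Figure D3:**
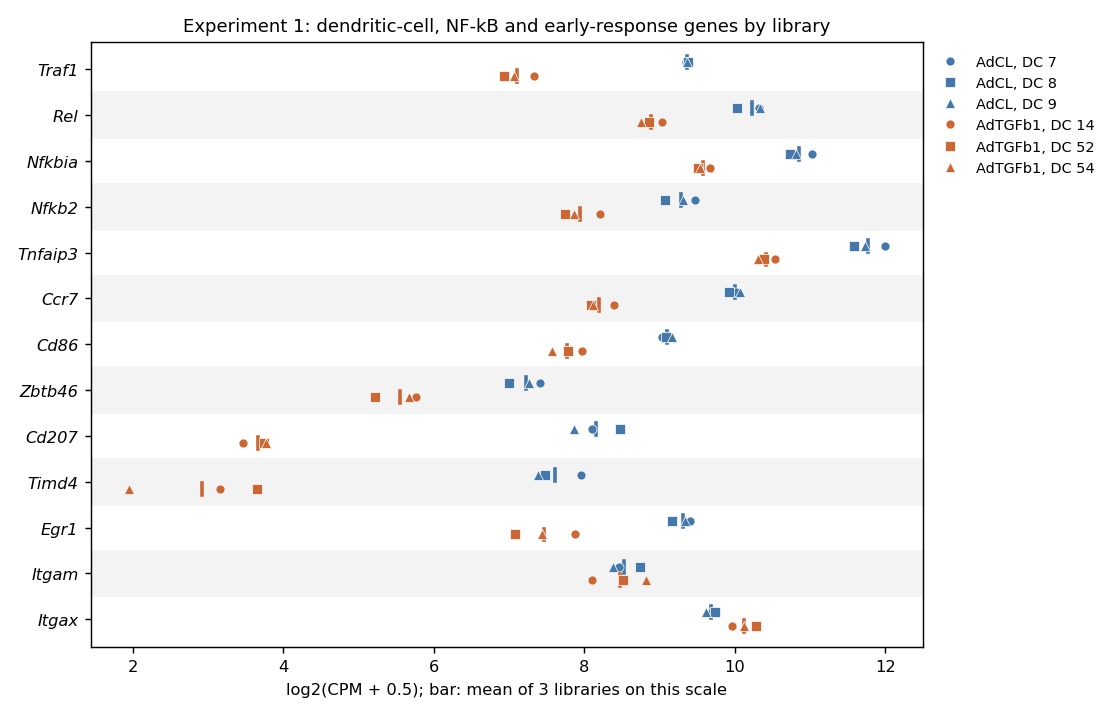
Levels of 13 dendritic-cell, NF-kB and early-response genes in the 6 libraries of experiment 1, as log2(CPM + 0.5), with AdCL in blue, AdTGFb1 in orange, 1 marker shape per library and a bar at each group's mean. For every gene from Traf1 to Egr1 the AdTGFb1 points lie to the left; the points of Itgam overlap, and those of Itgax lie slightly to the right.

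MHC class II and TGF-β pathway genes moved both ways, and the balance of the calls depended on scaling. For MHC class II 7 of 13 genes fell and 3 rose (median -0.53), 5 and 5 with total-count scaling, and 3 and 3 with DC 14 alone. H2-Eb1, a β chain, was at 8469, 8153 and 7336 CPM in AdCL and 5266, 3944 and 3699.5 CPM in AdTGFb1 and fell by 0.89 ± 0.14. H2-Aa, an α chain, was at 5939, 5501 and 5031 CPM and 3672, 2948 and 2801 CPM and fell by 0.81 ± 0.13. Neither overlapped between the groups. H2-Ob, a chain of the editor H2-O, fell by 1.99 ± 0.32. Of 42 TGF-β pathway genes 12 fell and 5 rose (median -0.32), 8 and 8 with total-count scaling and 6 and 2 with DC 14 alone. Tgfb1, the mouse ligand gene, was at 352, 353 and 298.3 CPM and 271, 307.03 and 232 CPM and did not pass the test (-0.31 ± 0.17, adjusted p = 0.194). Smad7, the inhibitory SMAD that TGF-β signalling induces, was at 183, 137 and 127 CPM and 164, 155 and 112 CPM (-0.05 ± 0.18, adjusted p = 0.864), overlapped between groups, and was 0.19 with total-count scaling. Skil, the transcriptional brake SnoN, fell by 1.29 ± 0.15, Lrrc32, the anchor GARP of latent TGF-β on the cell surface, by 1.905 ± 0.24, and Ltbp4, a latent TGF-β binding protein of the matrix, by 4.71 ± 0.51.

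Many interferon-γ genes rose, while type I interferon genes were mixed. Of 25 interferon-γ response genes 14 rose and 0 fell (median 0.83). Cxcl9, a T-cell chemokine, varied within the groups, at 31.0, 11.7 and 72.8 CPM in AdCL and 261, 106 and 211 CPM in AdTGFb1, and rose by 2.32 ± 0.44 without overlap. Of 29 type I interferon response genes 8 fell and 3 rose, with a median of -0.08 that was 0.17 under total-count scaling. The median was also above 0 without any 1 of DC 7 (0.06), DC 8 (0.12), DC 9 (0.08) or DC 52 (0.26), with a term for sex and with DC 14 alone (0.32 each, with 5 lower), and 5 rose without DC 9. Oasl1, a feedback inhibitor of interferon production, went from 336, 301.01 and 277 CPM to 70.2, 23.6 and 61.1 CPM and Ifit1, an antiviral RNA sensor, from 70.7, 51.2 and 37.8 CPM to 15.5, 4.73 and 6.74 CPM. Ifi204, a DNA sensor, rose by 1.63 ± 0.26.

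Cytokines, early-response and stress genes had these changes. Among 25 inflammatory cytokines and chemokines 4 rose and 8 fell (median -0.49), and 5 fell without DC 7, with DC 14 alone or with total-count scaling. Ccl6 and Ccl9, chemokines of myeloid cells, and Osm, oncostatin M, were among those that rose, by 2.42 ± 0.27, 1.32 ± 0.20 and 1.80 ± 0.22. Of 28 immediate early genes 13 fell and 3 rose (median -0.54), 9 and 7 with total-count scaling and 6 and 2 with DC 14 alone; without DC 7, 8 fell. Egr1, a transcription factor switched on within minutes of a stimulus, went from 679, 577 and 648 CPM to 236, 135 and 173 CPM (-1.81 ± 0.22, adjusted p = 3.08e-06). Gadd45b, a stress gene induced by NF-kB, fell by 1.37 ± 0.17 and Ppp1r15a, which ends the stress block on translation, by 1.41 ± 0.15. Unfolded protein response genes had 10 of 24 lower and 1 higher, 5 and 4 with total-count scaling and 5 and 0 with DC 14 alone. Hspa5, the chaperone BiP, was at 8249.8, 7245 and 7466 CPM and 3098, 3072 and 2790.4 CPM and fell by 1.36 ± 0.13 (adjusted p = 1.1e-07) with no overlap. Oxidative stress and iron genes had 8 of 24 lower and 4 higher. Txnrd1, thioredoxin reductase, fell by 1.55 ± 0.14, and Mt1 and Mt2, metallothioneins, by 1.56 ± 0.23 and 2.32 ± 0.32. Of 14 cytosolic heat shock genes 3 fell, 0 with total-count scaling and 0 to 2 without any 1 library. Chemokine receptors and adhesion genes had 5 of 22 higher and 8 lower, with Cd44, the hyaluronan receptor, down by 0.97 ± 0.12 and Itgb7, a mucosal integrin chain, by 1.31 ± 0.18.

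Many transcripts of lung structural cells fell, and they belonged to several cell types at once. The 15 lists of endothelium, epithelium, mesenchyme and related tissues held 291 genes. Of these, 214 passed the low-count filter and 31 had no count in any of the 6 libraries. Which cells held the RNA of each listed gene was not tested. Of the 214, 109 fell (50.9%, beside 14.1% of all genes), 7 rose and 98 did not pass. The median was -2.57, or -2.55 with the 14 genes that had no AdTGFb1 count set at their bound. A gene that is high in 1 group only passes the filter through that group, so these counts describe the genes that could be tested. All AdTGFb1 libraries were below all AdCL libraries for 126 of the 214 genes (beside 21.6%) and above for 9. These 291 genes took 0.505%, 0.846% and 0.627% of counts in AdCL DC 7, DC 8 and DC 9, and 0.447%, 0.505% and 0.476% in AdTGFb1 DC 14, DC 52 and DC 54. Without AdCL DC 8, the library with the most of these transcripts, 74 fell, and 48 fell with a term for sex. With a term for the endothelial marker level 0 fell. That level is the mean of the 32 shared endothelial markers, which are among the 291 genes, and it separates the groups. The 0 can therefore not be read as a result about these genes.

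Most shared endothelial genes fell. Of 32 shared endothelial markers 24 fell and 0 rose, with a median of -3.92. Their sum was 618, 1604 and 1035 CPM in AdCL and 304.8, 247 and 231 CPM in AdTGFb1, and 5 to 9 of the 32 were at 0 counts in an AdTGFb1 library, against none in AdCL. Pecam1, the adhesion molecule CD31, was at 35.0, 121 and 86.7 CPM and 17.6, 8.23 and 7.36 CPM and fell by 2.87 ± 0.39 (adjusted p = 1.21e-05). Cdh5, the endothelial cadherin, was at 60.8, 196 and 113 CPM and 16.4, 7.59 and 9.42 CPM and fell by 3.47 ± 0.47. Epas1, the hypoxia-inducible factor HIF-2α, went from 121, 402 and 272 CPM to 29.0, 16.9 and 23.1 CPM. In these genes DC 8 was the highest and DC 7 the lowest AdCL library, and even DC 7 was above every AdTGFb1 library. Tie1, an orphan receptor of endothelium, had 0 counts in DC 14 and fell by 5.96 ± 1.01. Cldn5, a tight-junction claudin, had 0 counts in DC 52 and DC 54 and 1.06 CPM in DC 14, against 8.27, 19.4 and 6.69 CPM in AdCL. With DC 14 alone 13 of the 32 fell, and the median was -3.60.

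Capillary endothelium had 14 of 20 genes lower and 2 higher (median -3.32, or -3.09 with genes at 0 set at their bound). The summed level of the list overlapped between the groups, at 584, 1168 and 868 CPM in AdCL and 749, 855 and 1103 CPM in AdTGFb1. Of these sums Lpl alone held 147, 159 and 149.9 CPM in AdCL and 386, 557 and 686 CPM in AdTGFb1. The overlap therefore does not describe the other members. Ptprb, the phosphatase VE-PTP, went from 66.9, 159 and 134 CPM to 0.682, 4.37 and 0.756 CPM (-5.94 ± 0.62, adjusted p = 4.29e-07), and Plvap, which forms the diaphragms of fenestrae, from 17.7, 133 and 42.9 CPM to 5.08, 3.22 and 0.825 CPM. Hpgd, which breaks down prostaglandins, fell by 2.02 ± 0.36. Lpl, also a macrophage gene, was 1 of the 2 that rose. Without DC 8, 9 capillary genes fell, and with DC 14 alone 6. Arterial and venous genes had 9 of 16 lower and 0 higher, and 5 lower with DC 14 alone. Edn1, endothelin 1, went from 106, 67.9 and 84.8 CPM to 7.57, 6.01 and 18.4 CPM. Selp, P-selectin, which platelets also carry, went from 21.6, 7.66 and 25.8 CPM to 0.454, 1.22 and 0 CPM, Efnb2, ephrin B2, fell by 2.23 ± 0.32, and Vwf, von Willebrand factor, by 1.02 ± 0.20, its AdTGFb1 values staying at 42.1, 40.4 and 44.6 CPM. Within AdCL, Edn1 and Selp were lowest in DC 8, where Pecam1 and Cdh5 were highest. Which cells held the RNA of Edn1 and Selp was not tested. Lymphatic genes were split, with Lyve1, a hyaluronan receptor, down by 4.73 ± 0.97 and Stab1 up, as above; 2 of 6 fell, 1 without any 1 of DC 7, DC 8, DC 9, DC 14 or DC 52, and 2 rose.

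Most genes of type I alveolar cells, which form the gas-exchange surface, fell, and part of those of type II cells, which make surfactant. Of 17 type I alveolar epithelial genes 11 fell and 1 rose (median -3.59), and 7 fell without DC 8 or DC 54. The summed level of the type I list was 1258 to 1511 CPM in AdCL and 845 to 1346 CPM in AdTGFb1. For the type II list it was 275 to 393 CPM and 240 to 277 CPM, so the groups overlapped in both sums. Ager, the receptor RAGE, was at 23.2, 73.8 and 37.6 CPM and 5.53, 1.22 and 2.89 CPM and fell by 3.80 ± 0.57 (adjusted p = 3.78e-05), with no overlap. Limch1, an actin regulator, went from 26.2, 107 and 56.6 CPM to 6.14, 2.86 and 4.81 CPM, Emp2, a membrane protein, from 25.6, 80.9 and 37.4 CPM to 2.42, 5.37 and 1.79 CPM. Of 16 type II genes 7 fell and 1 rose (median -1.48), but 3 fell without DC 8, without DC 54 or with DC 14 alone and 4 without DC 9, without DC 52 or with total-count scaling. Sftpc, surfactant protein C, was low in all libraries, at 10.1, 22.3 and 21.7 CPM and 1.14, 6.73 and 2.54 CPM, and fell by 2.37 ± 0.54. Sftpb, surfactant protein B, had 0.620, 10.6 and 8.83 CPM in AdCL and 0, 1.22 and 0.138 CPM in AdTGFb1, where DC 52 exceeded DC 7, and it fell by 3.86 ± 1.09, a call lost without DC 54 (-3.43, adjusted p 0.0528). Napsa, an aspartic protease of type II cells, was at 142, 171 and 165 CPM in AdCL, above Sftpc in every library. It stayed at 95.7, 119 and 98.9 CPM in AdTGFb1 and fell by 0.61 ± 0.18. That call was lost without any 1 of DC 8, DC 9, DC 14 or DC 54 (-0.52 to -0.56, adjusted p 0.0598 to 0.0678). Of 9 genes shared by epithelia 1 fell and 1 rose, close to the 14.1% and 10.6% of all genes. Ehf, an epithelial transcription factor, went from 192, 157 and 156 CPM to 18.9, 13.3 and 14.6 CPM (-3.43 ± 0.28, adjusted p = 2.55e-08), Cdh1, E-cadherin, rose by 1.63 ± 0.24, and Epcam was at 19.3, 17.7 and 20.6 CPM and 25.5, 28.5 and 16.98 CPM (adjusted p = 0.589). Gprc5a, an orphan receptor counted as type I, went from 135, 183 and 145 CPM to 32.7, 28.6 and 12.5 CPM. Napsa, Ehf and Gprc5a varied little over DC 7, DC 8 and DC 9 beside Ager, and which cells held their RNA was not tested.

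Airway genes rested on few counts. Of 7 tested club and secretory genes 2 fell, and of 7 ciliated genes 1, beside 14.1% of all genes. The ciliated share was thus close to that of all genes. Scgb1a1, the main secreted protein of club cells, was at 8.17, 315 and 33.8 CPM in AdCL, nearly all of it in DC 8, and 10.2, 0.931 and 0.275 CPM in AdTGFb1. DC 14 exceeded DC 7, so the groups overlapped, and the change was -4.99 ± 0.98 (adjusted p = 0.000644). Foxj1, the master regulator of cilia, was at most 2.27 CPM in the 6 libraries of experiment 1 and did not pass the test (adjusted p = 0.437). Sec14l3, a lipid carrier of ciliated cells, was the gene of that list that fell, by 3.18 ± 0.60.

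Many fibroblast and basement membrane genes fell too. Of 33 fibroblast genes 18 fell and 0 rose (median -2.54), and 11 fell with DC 14 alone. Npnt, nephronectin, went from 21.7, 57.5 and 31.9 CPM to 2.27, 0.358 and 3.44 CPM and Sparcl1, a matricellular protein, from 37.8, 96.6 and 60.9 CPM to 6.67, 13.5 and 5.29 CPM. Col3a1, a fibrillar collagen, was at 38.4, 85.5 and 55.2 CPM and 11.1, 16.04 and 7.01 CPM and fell by 2.39 ± 0.44 (adjusted p = 0.000334), with no overlap. Col1a1, a chain of collagen I, overlapped between the groups, at 14.6, 35.8 and 30.2 CPM and 11.4, 24.6 and 4.81 CPM, and did not pass the test (-0.98 ± 0.66, adjusted p = 0.296). Of 18 smooth muscle and pericyte genes 5 fell and 0 rose, and 1 fell without DC 8 or with DC 14 alone, 2 without DC 52 or DC 54 and 3 without DC 9. Acta2, smooth muscle actin, was at 6.82, 30.3 and 16.3 CPM and 3.03, 7.59 and 6.46 CPM, overlapped, and did not pass (adjusted p = 0.248). Myh11, smooth muscle myosin, fell by 2.42 ± 0.86 (adjusted p = 0.0426), a call lost without any 1 of DC 8, DC 9, DC 14 or DC 52 (-2.11 to -2.32, adjusted p 0.0837 to 0.124). Mylk, myosin light chain kinase, fell by 2.32 ± 0.44. Basement membrane genes had 12 of 20 lower and 0 higher (median -2.36), 7 with DC 14 alone, 8 without DC 8 and 2 with a term for sex. Sparc, osteonectin, went from 40.6, 88.6 and 32.3 CPM to 7.20, 11.5 and 10.3 CPM and Col4a2, a collagen IV chain, from 77.0, 138 and 74.6 CPM to 16.2, 23.2 and 3.16 CPM. Mesothelium had 1 of 4 genes lower (0 without any 1 of DC 7, DC 8, DC 14 or DC 54), heart muscle 1 of 7, and nerve sheath 1 of 2 (0 without any 1 of DC 7, DC 52 or DC 54). The heart muscle share was close to the 14.1% of all genes, and each of these lists had few tested genes.

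**Figure D4:**
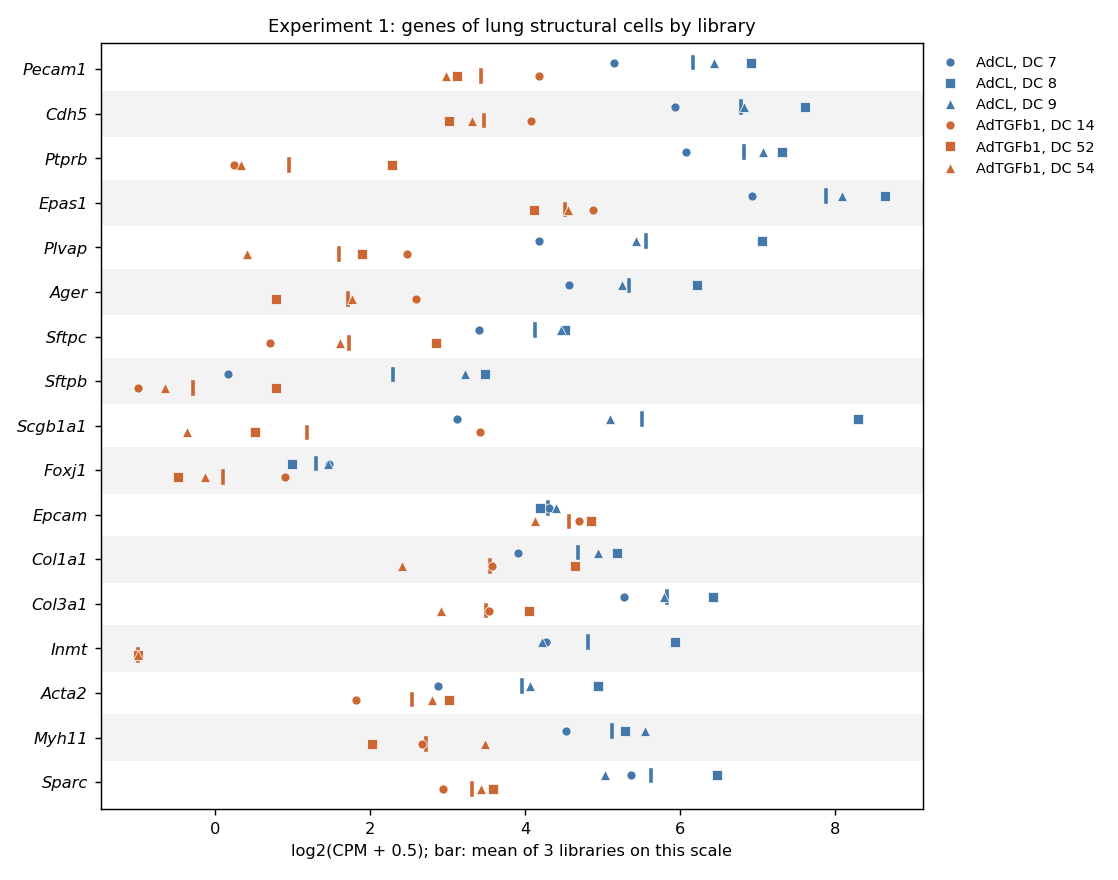
Levels of 17 structural-cell genes in the 6 libraries of experiment 1, as log2(CPM + 0.5), with AdCL in blue, AdTGFb1 in orange, 1 marker shape per library and a bar at each group's mean; a library with no count sits at -1. The AdCL squares, DC 8, are at the right end for most genes, and the groups overlap for Sftpb, Scgb1a1, Epcam, Col1a1 and Acta2.

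Markers of other blood cells that passed the test were mostly lower with AdTGFb1. Platelet genes had 4 of 13 lower and 0 higher, beside 14.1% and 10.6% of all genes, with a summed level of 109 to 159 CPM in AdCL and 34.5 to 54.1 CPM in AdTGFb1. Itga2b, the platelet integrin chain CD41, went from 32.8, 18.7 and 21.2 CPM to 2.42, 0.931 and 0.688 CPM, and Nrgn, neurogranin, from 16.5, 5.87 and 16.3 CPM to 0.379, 0 and 0.138 CPM. NK and innate lymphoid genes had 5 of 11 lower, 0 with DC 14 alone, 2 without DC 14 or DC 54 and 3 without DC 7 or DC 52; Il2rb, a receptor chain for IL-2, fell by 3.88 ± 0.82. T cell genes had 2 of 18 lower, a smaller share than the 14.1% of all genes. This count was 1 without any 1 of DC 7, DC 9 or DC 52 and 3 without DC 54. Il7r, a receptor also found on DCs, fell by 1.10 ± 0.17. Neutrophil genes had 3 of 13 lower and 1 higher. S100a9, a calcium-binding protein of neutrophils, was at 18.2, 9.95 and 13.6 CPM and 0, 0.501 and 0.0688 CPM, and Il1r2, a decoy receptor for IL-1, fell by 2.11 ± 0.24. B and plasma cell genes had 2 of 12 higher and 0 lower, 1 without DC 54, with Cd22, an inhibitory receptor, up by 2.51 ± 0.57. Alox15, a lipoxygenase and the 1 tested eosinophil gene, rose from 0.724, 0.398 and 6.69 CPM to 25.0, 35.7 and 27.6 CPM, while 4 of the 6 eosinophil genes were at 0 in all 6 libraries. The part of these cells in the changes above was not tested.

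Experiment 3 gave the same comparison with 850 calls (6.43%), 261 higher (1.97%) and 589 lower (4.46%), in libraries that were all female. Of the genes that rose in experiment 1, 140 also rose in experiment 3 (10% of the former and 53.6% of the latter), and of those that fell 409 also fell (21.9% and 69.4%). The difference between the effects passed the test for 796 genes (6.02%), 343 with a more positive effect in experiment 1 (2.59%; 212 without DC 52) and 453 with a more negative one (3.43%). With a term for sex 70 and 87 passed. Of the 29 fibrosis-associated macrophage genes 15 had a more positive effect in experiment 1 and 2 a more negative one. A more positive effect was also found for 9 of 22 alveolar macrophage, 11 of 24 alternative activation, 12 of 44 lysosome and 14 of 30 cell cycle genes, and a more negative one for 0 of them. In experiment 3 the fibrosis-associated list had 1 gene higher and 6 lower, and the cell cycle list 0 and 4. Fn1 changed by -1.32 in experiment 3 against 3.76 ± 0.35 in experiment 1 (difference 5.08, adjusted p = 3.85e-06), and Chil3 by -2.43 against 4.75 ± 0.55 (difference 7.17, adjusted p = 1.04e-05). For Igf1 the effect in experiment 3 was -0.07 (difference 2.18, adjusted p = 4.73e-05).

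Structural-cell transcripts differed between the experiments too. Of the 214 tested, 61 had a more negative effect in experiment 1 and 4 a more positive one, and in experiment 3, 7 rose and 9 fell (median 0.21). For shared endothelial markers 17 of 32 differed, all more negative in experiment 1, with 1 higher and 0 lower in experiment 3 (median 0.62). Fibroblast genes differed in 13 of 33, capillary genes in 10 of 20 for the more negative and 1 for the more positive. The summed level of the shared endothelial markers was 275 to 429 CPM in AdCL and 366 to 530 CPM in AdTGFb1 of experiment 3. The AdTGFb1 libraries of experiment 1, at 231 to 304.8 CPM, overlapped the AdCL range of experiment 3 or lay below it, and the AdCL libraries of experiment 1, at 618 to 1604 CPM, lay above every other group. Ptprb differed by -6.49 (adjusted p = 4.73e-05) and Epas1 by -3.99 (adjusted p = 7.98e-05). Among the structural-cell genes named, Ehf, Gprc5a, Efnb2, Selp and Napsa fell in both experiments (-2.17, -2.03, -1.11, -3.12 and -0.92 in experiment 3). Which cells held their RNA was not tested. Snord15a, a small nucleolar RNA encoded in introns of the ribosomal protein gene Rps3, was at 152, 73.4 and 135 CPM and 6.44, 21.2 and 9.35 CPM in experiment 1 and went the other way in experiment 3 (1.61).

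Maturation and NF-kB genes also held some that differed. Of 36 mature migratory genes 1 had a more negative and 4 a more positive effect in experiment 1, and of 21 NF-kB genes 7 a more negative one, beside 3.43% of all genes more negative and 2.59% more positive. Ccr7 changed by -1.58 in experiment 3 and -1.80 ± 0.18 in experiment 1 (difference -0.22, adjusted p = 0.683), and Zbtb46 by -1.58 and -1.68 ± 0.23 (adjusted p of the difference = 0.911). Egr1 changed by 0.23 in experiment 3 (difference -2.04, adjusted p = 0.000349). Of 47 ribosomal protein genes 28 fell in experiment 1 and 29 in experiment 3. Of 25 interferon-γ genes 14 rose in experiment 1 and 15 in experiment 3, and 1 differed.

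**Figure D5:**
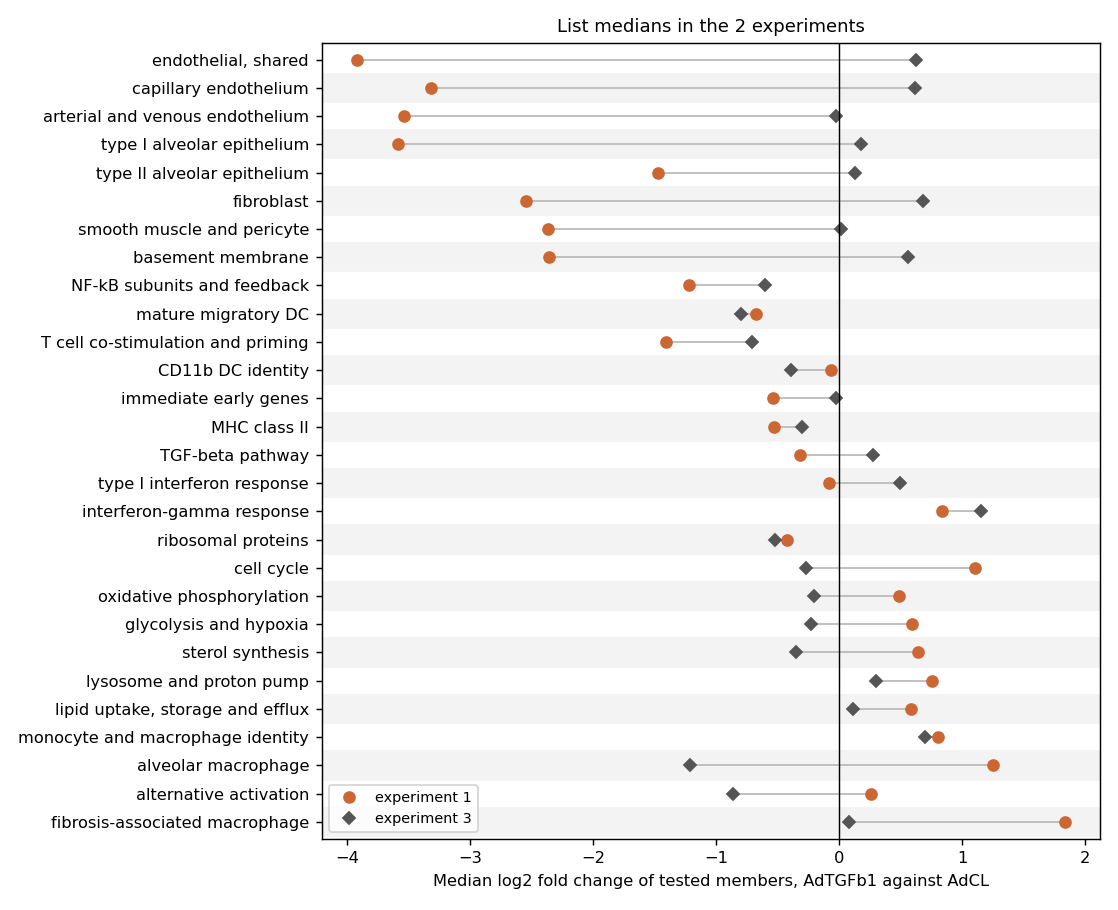
Median log2 fold change of AdTGFb1 against AdCL over the tested members of 28 gene lists, in experiment 1 (orange circles) and experiment 3 (grey diamonds). The circles of the endothelial, fibroblast and basement membrane lists lie far to the left of their diamonds, those of the fibrosis-associated macrophage, alveolar macrophage and cell cycle lists to the right, and the 2 markers of the ribosomal list lie close together.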

How the data were processed

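CD11b dendritic-cell RNA of 12 libraries was sequenced from poly(A) RNA with a directional kit, per the labels' protocols. The authors deposited raw read counts for 24391 gene symbols, and the submitters' processing notes list STAR 2.5.0c, HTSeq, cutadapt 1.9.1, DESeq2, Trim Galore 0.4.1, bcl2fastq, FastQC 0.11.4 and mm9, with no role or order. For the annotation and strand setting nothing was stated in the sources used here. The members, gene lists and tests were chosen with earlier results of these data known.

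Counts were filtered with filterByExpr, scaled by TMM and fitted with edgeR 4.0.16 (R 4.3.3; quasi-likelihood F test, 4 groups, all 12 libraries in 1 fit). The contrasts were AdTGFb1 against AdCL in experiment 1, the same in experiment 3, and their difference, each adjusted over 13221 genes by Benjamini-Hochberg, with an SE of the log2 fold change divided by the root of F. On simulated counts for 12865 genes, the fit called 185 of 195 genes changed 4-fold, all in the right direction, and 12 of the unchanged genes. The simulation gave every gene the same relative spread and no difference by sex. Its counts therefore do not carry over to genes that vary more between libraries, such as Scgb1a1. No pair of libraries agreed within sampling noise, and none was dropped. Every column of the table was used.

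Up to 12 genes per direction were named for the largest non-overlapping changes with at least 10 CPM, up to 4 per list and 6 per direction of the difference for the smallest adjusted p, and a set of markers whatever their result. Ctsa, Ctsd, Glb1, Nfkb2, Nfkbia and Tnfaip3 lie outside that rule and were chosen after their values were seen. A gene can belong to several lists. Exon overlap was taken from the GENCODE M21 annotation and promoters from RefSeq (GRCm38.p6); no coordinate was converted. DESeq2 1.42.0, other scalings, filters, covariates and left-out libraries were the alternatives.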

Additional observations from a re-analysis of the deposited data

Results flagged for a closer look

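The effect of the TGF-β1 vector differed between experiment 1 and experiment 3 for the genes below, by the test of the difference itself (adjusted p under 0.05). The number after each gene is the log2 effect in experiment 1 minus that in experiment 3; above 0, the effect of experiment 1 was the more positive. The male and female libraries are not balanced between the experiments; with a term for sex 70 and 87 genes passed, against 343 and 453 without it.

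Among macrophage, matrix and cytokine genes the differences were Fn1 (5.08), Chil3 (7.17), Arg1 (8.6), Slc7a2 (5.55), Ccl24 (8.07), F7 (6.3), Ccdc80 (5.9), Tarm1 (5.89), Ctsk (5.04), Igf1 (2.18), Spp1 (2.14), Mmp14 (1.48), Mmp12 (1.17), Tgfbi (0.863), Lpl (1.67), Fabp5 (2.12), Msr1 (2.09), Cfb (3.43), C1qc (0.878), Fcgr3 (0.872), Ccr2 (0.896), Ccl6 (3.21), Ccl9 (2.27), Osm (1.86) and Alox15 (6.22). Lysosome genes differed by Atp6v0d2 (4.07), Ctss (0.955), Ctsd (1.56), Grn (0.964), Gusb (0.931), Glb1 (1.83) and Naaa (1.48). For cell cycle, energy and sterol genes the values were Top2a (1.64), Ccna2 (3.5), Tpx2 (1.7), Mcm3 (0.963), Ndufs7 (2.35), Sdha (0.803), Aldoa (1.06), Ldha (1.17), Scd2 (2.28) and Cyp51 (1.26).

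Endothelial and platelet genes were more negative in experiment 1: Ptprb (-6.49), Epas1 (-3.99), Cdh5 (-4.82), Pecam1 (-3.41), Tie1 (-8.2), Cldn5 (-6.91), Plvap (-5.06), Hpgd (-2.91), Lyve1 (-4.4), Gimap6 (-6.26) and Itga2b (-4.34). The same held for the epithelial genes Limch1 (-4.18), Emp2 (-4.09), Ager (-4.28), Sftpc (-2.73), Ehf (-1.26) and Cyp4b1 (-7.18), while Cdh1 (2.04) was more positive. Fibroblast, smooth muscle and matrix genes gave Inmt (-10.5), C7 (-10.7), Pcolce2 (-7.95), Fmo1 (-8.14), Npnt (-4.93), Sparcl1 (-4.43), Sparc (-3.8), Col3a1 (-3.95), Col4a2 (-2.74), Mylk (-2.37), Ltbp4 (-4) and Bmp6 (-8.6). Inmt, C7 and Pcolce2 had no count with AdTGFb1 in experiment 1, so their fitted differences depend on the fit's handling of 0 and are no bound.

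Dendritic-cell, NF-kB, early-response and other genes gave Cd207 (-2.77), Cadm1 (-2.33), Kit (-1.3), Il10 (-2.78), Marcksl1 (-1.25), H2-Ob (-1.47), Cflar (-1.14), Nfkbib (-1.02), Nfkbia (-0.84), Skil (-1), Egr1 (-2.04), Ppp1r15a (-1.14), Gadd45b (-1.04), Hspa5 (-0.948), Oasl1 (-2.04), Il2rb (-4.56), S100a9 (-3.17) and Snord15a (-4.89).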

How the results depend on the processing

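RLE size factors, DESeq2, either other filter and a fit of experiment 1 alone left the counts of higher and lower genes within 1.5 times of 1397 and 1867. Total-count scaling gave 2384 higher and 1264 lower (65.4% of the calls higher) and 523 genes with a more positive effect in experiment 1; DESeq2 gave 780 with a more negative one. A term for sex, which within experiment 1 rests on the AdTGFb1 group alone, gave 540 higher, 756 lower, 70 and 87 differences and 48 structural-cell genes lower. AdTGFb1 DC 14 alone, assumed to vary like the other groups, gave 506, 793 and 61. A term for the endothelial marker level, which separates the groups of experiment 1, gave 5, 12 and 0 and turned the direction of 320 of the 3264 calls. The level is the mean of 32 of the structural-cell genes counted, so the 0 among them decides nothing. The cause was not tested. Leaving out 1 library of experiment 1 gave 957 to 1313 higher, 1375 to 1608 lower, 212 (without DC 52) to 364 more positive and 312 to 534 more negative differences, and 74 (without DC 8) to 101 structural-cell genes lower. No paired analysis was possible because the groups share no library number.

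Under the endothelial term the log2 fold change turned to -1.19 for Cfb, -1.38 for Gpnmb, -1.36 for Cxcl9, -0.21 for Ccna2, -1.43 for Cd22, 0.61 for Cdh5, 1.54 for Plvap, 2.32 for Lyve1, 0.92 for Sftpc, 0.69 for Sftpb, 0.26 for Napsa, 1.30 for Scgb1a1, 3.63 for Col1a1, 1.20 for Col3a1, 0.35 for Mylk, 3.50 for Myh11, 7.32 for Acta2, 0.75 for Sparc, 0.53 for Col4a2, 0.76 for Itgam and 0.39 for Tgfb1. Of the 144 named genes that passed, 18 lost their call with the term for sex, 16 with DC 14 alone and 124 with the endothelial term. With each of the first 2 settings these included Nrgn, Cldn5, Hpgd, Napsa, Myh11, Itgax, Cadm1, Rps15, Aldoa, Ldha, Cyp51, Il2rb and Alox15; Bmp6, Lyve1, Scgb1a1, Sec14l3 and Col4a2 lost it with the term for sex and Ccdc80, H2-Aa and Sdha with DC 14 alone. Mmp12 was -0.016 with a term for sex and -0.010 with DC 14 alone. Itgam was 0.22 with total-count scaling and -0.21 to 0.14 without 1 library. Smad7 was 0.19 with total-count scaling, 0.13 with a term for sex, 0.14 with DC 14 alone and -0.15 to 0.17 without 1 library. None of these reversed values passed the test.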
